A study of Mus musculus with 3 samples.

Results

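The caspase genes Casp1, Casp2, Casp4, Casp6, Casp8, Casp9 and Casp12, together with Apaf1, were described in a mouse myeloma line that is resistant to bortezomib, 5TGM1.BRE. These 8 genes were taken by symbol, and all 8 were among the 24467 genes in the tables of counts. The 5TGM1 myeloma arose spontaneously in C57BL/KaLwRij mice, and the engraftable resistant cells came from the marrow of such mice. Bortezomib inhibits the proteasome, which breaks down proteins marked with ubiquitin. The line was kept in 10 nM of it, the drug was withdrawn 72 h or more ahead of RNA extraction, and each sample was made from 10000000 cells. There was 1 group of 3 polyadenylated RNA libraries, all with this history, and drug-sensitive parental cells were not analysed here, so no effect of the drug or of resistance was measured. Replicate 1 is titled resistant like the others, although its cell type label does not mention the resistance. Whether the replicates came from separate cultures is not in the labels, so each SD and p-value covers variation among these 3 libraries, possibly technical in part or whole.

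Caspases are proteases that cut after aspartate and are made as inactive precursors. Initiator caspases are switched on by assembly platforms: caspase-9 on the apoptosome, a wheel of Apaf1 and cytochrome c that forms when mitochondria leak, caspase-8 on the adaptor Fadd below death receptors, and caspase-2 on the PIDDosome of Pidd1 and Cradd. Caspase-6 acts downstream as an executioner. Caspase-1 and caspase-4 (long called caspase-11 in mice) are inflammatory caspases, which process interleukins or open the pore protein gasdermin D, and caspase-12 is their relative at the endoplasmic reticulum. Proteasome inhibitors are known to kill myeloma cells largely through caspase-dependent apoptosis.

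The libraries held 62303493, 45705994 and 59402218 counts for replicates 1, 2 and 3. One gene is compared across libraries in CPM, its counts per 1000000 counts of the library, and different genes are compared in TPM, which first divides counts by exon length. Replicate 3 stood apart, with a chi-square of 65.1 and 44.4 per degree of freedom against replicates 1 and 2, while replicates 1 and 2 differed by 4.0. Of 8 plasma cell markers 7 were at 1 CPM or more in all libraries, and Tnfrsf17, the B cell maturation antigen gene, averaged 0.582 CPM. The other markers at 1 CPM or more in all libraries were 3 of 7 for B cells, 1 of 12 for macrophages and neutrophils, 0 of 7 for T and NK cells, 1 of 7 for erythroid cells and megakaryocytes and 1 of 9 for stroma and endothelium.

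The inflammatory caspase genes lie side by side on chromosome 9 of the mouse (GRCm38), all on the plus strand. Casp1 spans 5298517 to 5307265, Casp4 follows 1562 bases later from 5308828 to 5336783, and Casp12 follows 8646 bases after that, from 5345430 to 5373032. The other genes are scattered: Casp8 on chromosome 1 (58795374 to 58847503, plus strand), Casp6 on chromosome 3 (129901425 to 129914103, plus), Casp9 on chromosome 4 (141793612 to 141815976, plus), Casp2 on chromosome 6 (42264985 to 42282508, plus) and Apaf1 on chromosome 10 (90989311 to 91082770, minus). Annotated transcripts of these genes shared little sequence with those of other genes, but how the deposited counts were assigned could not be checked. Of all 100-base windows in their transcripts, the highest share found in transcripts of another gene was 0.717% for Casp8, and none were shared for the other 7 genes. At 50 bases the shares were 4.37% for Casp8 and at most 0.855% for the others. Casp9 was the only member with exons that overlap those of other annotated genes, 94 bases on the opposite strand shared with Cela2a and Ctrc, which had 4 and 0 counts over all libraries.

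Promoters of the members differed widely in CpG content, and 5 of them are printed because the 3 neighbours on chromosome 9 all had fewer CpGs than the median promoter while their RNA levels lay far apart. Each sequence is the 250 bases before the RefSeq start site (GRCm38.p6), 5′ to 3′ on the gene's strand, with CpG dinucleotides in capitals. The windows are chr9:5298267-5298516 for Casp1, chr9:5308599-5308848 for the first of 2 Casp4 start sites, chr9:5345226-5345475 for Casp12, chr4:141793362-141793611 for Casp9 and chr10:91082744-91082993 for Apaf1.
Casp1: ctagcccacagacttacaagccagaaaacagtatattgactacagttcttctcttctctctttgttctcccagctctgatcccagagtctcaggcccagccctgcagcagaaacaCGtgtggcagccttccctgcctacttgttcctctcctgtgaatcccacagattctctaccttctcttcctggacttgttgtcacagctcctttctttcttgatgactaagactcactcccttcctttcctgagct
Casp4: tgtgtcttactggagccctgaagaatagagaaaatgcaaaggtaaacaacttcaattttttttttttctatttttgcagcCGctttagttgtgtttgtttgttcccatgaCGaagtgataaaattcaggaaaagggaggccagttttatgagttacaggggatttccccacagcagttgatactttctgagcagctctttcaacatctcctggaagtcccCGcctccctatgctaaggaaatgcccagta
Casp12: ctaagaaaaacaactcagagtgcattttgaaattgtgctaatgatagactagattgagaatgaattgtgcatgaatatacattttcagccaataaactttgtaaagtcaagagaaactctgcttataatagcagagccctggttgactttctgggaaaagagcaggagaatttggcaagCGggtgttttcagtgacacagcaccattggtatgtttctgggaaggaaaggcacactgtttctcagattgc
Casp9: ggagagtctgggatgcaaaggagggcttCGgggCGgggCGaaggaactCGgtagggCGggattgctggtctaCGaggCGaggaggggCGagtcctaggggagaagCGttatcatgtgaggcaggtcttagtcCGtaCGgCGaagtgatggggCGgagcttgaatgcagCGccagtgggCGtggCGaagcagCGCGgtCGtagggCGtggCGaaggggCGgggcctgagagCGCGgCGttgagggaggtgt
Apaf1: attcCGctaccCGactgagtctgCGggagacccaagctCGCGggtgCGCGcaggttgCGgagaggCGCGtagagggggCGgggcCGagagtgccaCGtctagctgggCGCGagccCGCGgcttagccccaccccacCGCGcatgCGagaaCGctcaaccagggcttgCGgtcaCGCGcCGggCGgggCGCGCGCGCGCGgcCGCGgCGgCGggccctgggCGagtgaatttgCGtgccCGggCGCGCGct

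These windows held 1 CpG in Casp1, 3 in Casp4 and 1 in Casp12, against 25 in Casp9 and 42 in Apaf1. Over 32851 promoter windows of the same length the median was 6 CpGs, with quartiles of 2 and 16. The remaining windows had 5 CpGs in Casp8, 11 in Casp6 and 17 in Casp2. The Casp8 window, chr1:58802252-58802501, lies inside the annotated gene, which starts at 58795374, so it precedes an internal start site. Both strands were searched for the GC box GGGCGG, found in 32.74% of all windows, and it occurred 4 times in Casp9, 2 times in Apaf1, once each in Casp2 and Casp6, and not in these letters in the other windows. The paired IRF motif GAAANNGAA, found in 7.13% of all windows, was in none of the members' windows. The CCAAT box, in 33.85% of all windows, occurred 2 times each in Casp2 and Casp12 and once in Casp8. The E2F motif TTTCCCGC, in 0.895% of all windows, occurred once in Casp2, where it overlapped the GC box, and the TATA box TATAAA, in 12.37% of all windows, in no member. CpG content did not follow the order of RNA levels given next, since Casp1 and Casp12 had the same CpG count and the highest and lowest level of the 8 genes.

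Of the 8 genes 7 were at 1 CPM or more in all 3 libraries, which was true of 10016 of 16272 genes with a count, or 61.6%. The median over the 8 genes was 27.9 TPM, beside 7.72 TPM over the genes with a count. Casp1 was the most abundant per length and Casp12 the least, and Casp12 was below 1 CPM in every library. Per length, the order was Casp1, Casp4, Casp8, Casp2, Casp9, Casp6, Apaf1 and Casp12, and the order was the same with the longest transcript as the length.

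**Figure D1:**
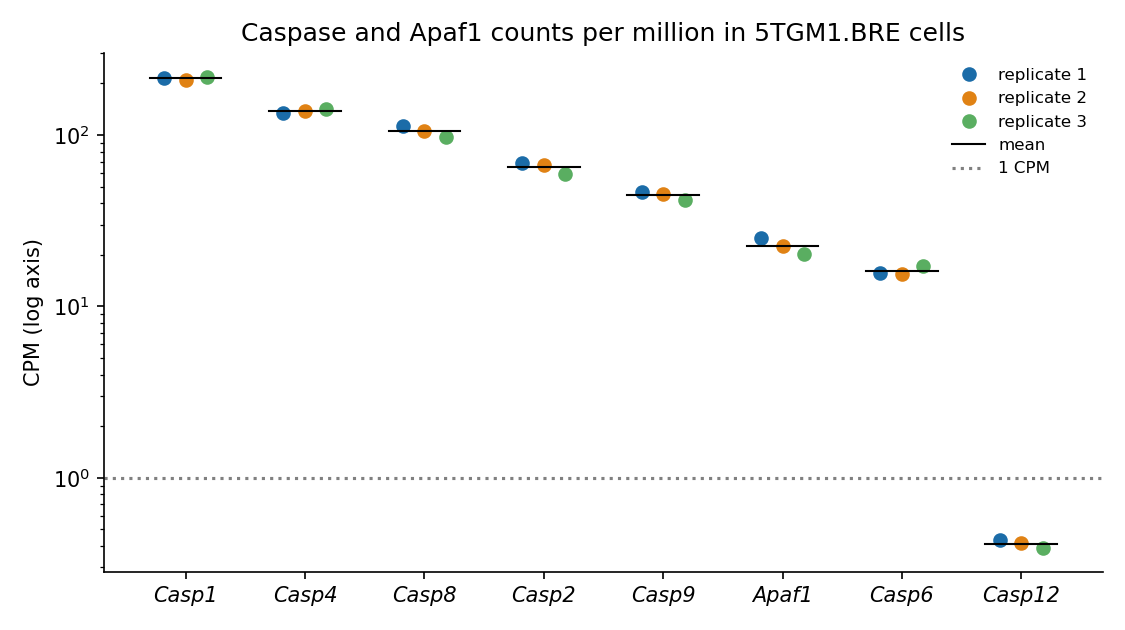
CPM of each gene (log axis) in the 3 libraries, with the mean as a black line and 1 CPM dotted. The libraries lie close together for every gene, with Casp1 around 216 CPM, and only Casp12, around 0.412 CPM, is under the dotted line.

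Neighbours in that order were compared within each library by the log2 ratio of counts per kilobase. Casp1 exceeded Casp4 3.87-fold (log2 1.95 ± 0.045, SD, n = 3), Casp8 exceeded Casp2 3.97-fold (log2 1.99 ± 0.031) and Apaf1 exceeded Casp12 23.2-fold (log2 4.54 ± 0.075), each in 3 of 3 libraries. The TPM ranges of Casp4 and Casp8 overlapped, with a log2 ratio of 0.03 ± 0.15 (SD, n = 3) that was above 0 in 2 of 3 libraries. The ranges of Casp2 and Casp9 and of Casp6 and Apaf1 also overlapped across libraries, although within each library Casp2 exceeded Casp9 (log2 0.10 ± 0.044) and Casp6 exceeded Apaf1 (log2 0.21 ± 0.23), in 3 of 3 libraries each. Without lengths the log2 ratio of Casp6 to Apaf1 turned to -0.48, and Apaf1 exceeded Casp12 54.5-fold. The length taken for a gene moved some of these sizes: with the longest transcript, Casp1 exceeded Casp4 1.98-fold, Casp4 exceeded Casp8 1.78-fold, Casp8 exceeded Casp2 2.22-fold and Casp2 exceeded Casp9 1.60-fold. For every ratio found in the same direction in all libraries, a two-sided exact permutation test by sign flips gave p = 0.25, the smallest that n = 3 allows, or 0.292 after Benjamini-Hochberg adjustment over 14 ratios. None could therefore pass 0.05.

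**Figure D2:**
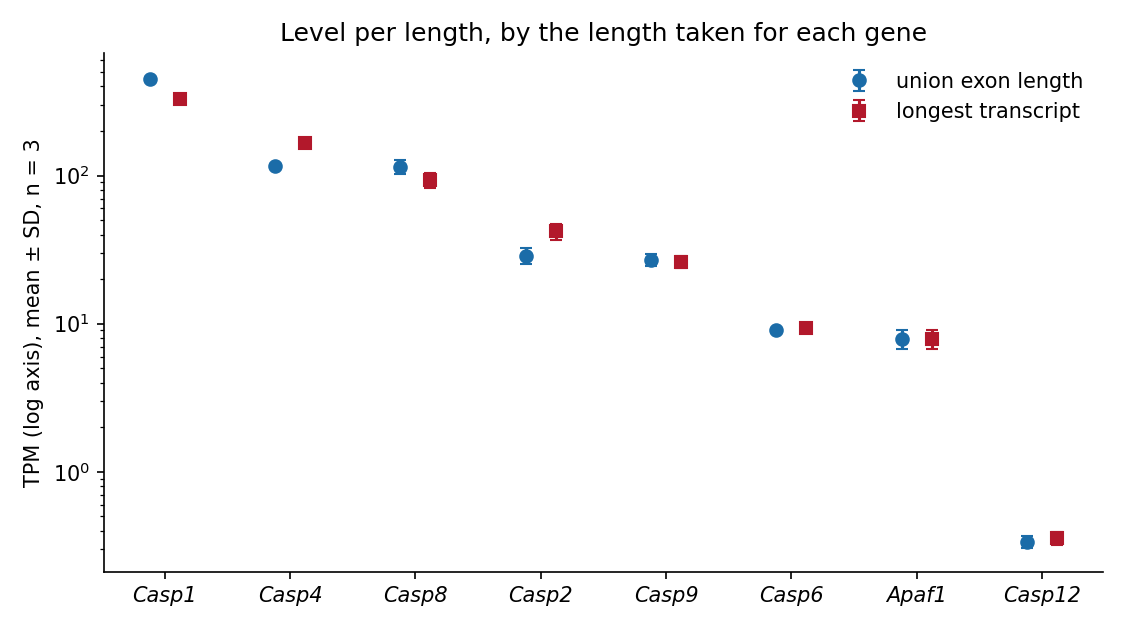
Mean TPM (log axis) with SD over 3 libraries for each gene, from the union of its exons (circles) and from its longest transcript (squares). Casp1 is at 451 TPM by the union and 329 TPM by the longest transcript, Casp4 at 117 and 166 TPM, and the order of the 8 genes is the same.

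Among the inflammatory caspases, Casp1, which matures interleukin-1β and interleukin-18, was at 216, 211 and 219 CPM in replicates 1, 2 and 3. The libraries lay within a coefficient of variation of 2.06%, and the mean of 451 ± 14.9 TPM (SD, n = 3) was at percentile 97.9 of genes with a count. Casp4, whose product binds bacterial lipopolysaccharide in the cytosol, was at 134, 138 and 142 CPM, also with little spread, and averaged 117 ± 2.43 TPM (SD, n = 3). Casp12 had only 27, 19 and 23 counts, or 0.433, 0.416 and 0.387 CPM. Casp4 exceeded this close neighbour 347-fold per kilobase (log2 8.44 ± 0.12, SD, n = 3), and 468-fold with the longest transcript.

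**Figure D3:**
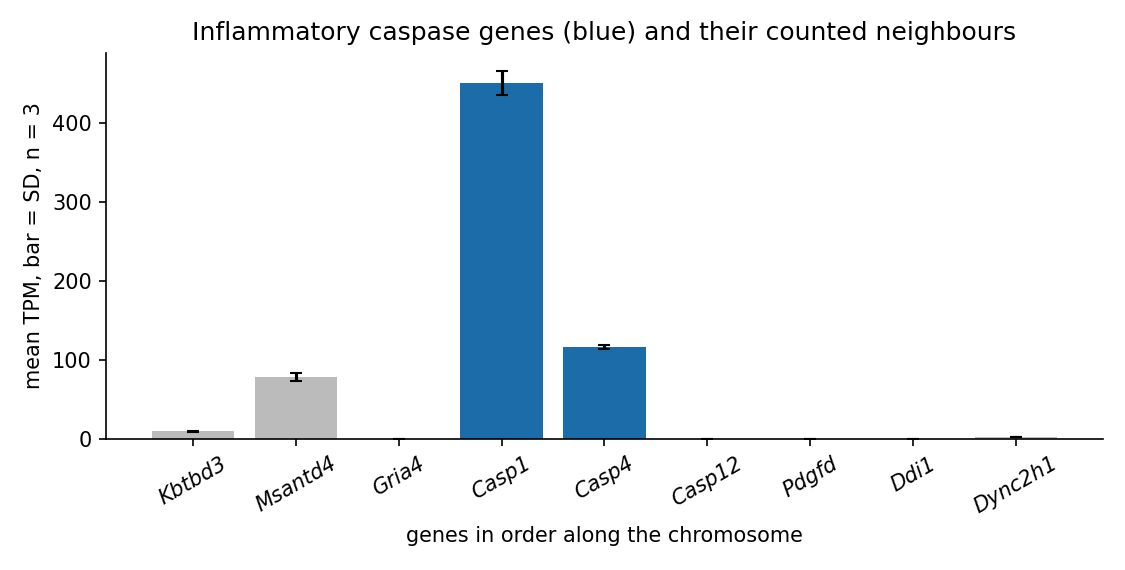
Mean TPM with SD over 3 libraries for the inflammatory caspase genes (blue) and the 3 nearest counted genes on each side (grey), in their order along chromosome 9. Casp1 and Casp4 stand at 451 and 117 TPM, whereas Casp12, Gria4, Pdgfd and Ddi1 are at or near 0.

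Both expressed and silent genes lay around them. Gria4, a glutamate receptor gene 502 kb before Casp1, had 0 counts in all libraries, as did Pdgfd, a growth factor gene 796 kb after Casp12, and Ddi1. Farther out, Msantd4 had a mean of 78.2 TPM, Kbtbd3 of 10.03 TPM and Dync2h1, which encodes a dynein heavy chain, of 2.501 TPM.

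Casp1 and Casp4 are well known in macrophages, and of the listed macrophage and neutrophil markers all but Cd68 were near 0 here. Cd68, a lysosomal protein gene, averaged 473 CPM, but the other 11 macrophage and neutrophil markers together summed to 0.417, 0.394 and 0.741 CPM in replicates 1, 2 and 3. Lyz2, the lysozyme gene, had 6, 3 and 15 counts, Csf1r, the macrophage growth factor receptor gene, had 0, 1 and 3, and S100a8 and S100a9 had none. In the same libraries Casp1 had 13485, 9631 and 13037 counts, and which cells gave them was not tested.

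Partner genes of the inflammatory caspases were unevenly expressed. Of 20 inflammasome genes 10 had at least 1 CPM throughout, and the median of the list was 1.09 TPM, beside 7.72 TPM over genes with a count. Pycard, which encodes the ASC adaptor that links most sensors to caspase-1, had 0, 0 and 1 counts. Over the pooled libraries Casp1 thus had 36153 counts against 1 for Pycard, a per-kilobase ratio of 91771 with a 95% counting interval of 16470 to 3624870. This exact interval holds counting error alone and treats every count as an independent molecule, which PCR copies are not.

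The sensor genes split. Aim2, a sensor of cytosolic DNA, was at 70.3, 67.6 and 64.4 CPM in replicates 1, 2 and 3, at a mean of 60.5 TPM. Nlrp3, which responds to many kinds of cell damage, had 0, 2 and 2 counts, and Mefv, the pyrin gene, had 0, 0 and 1. Nlrc4, which signals for bacterial proteins, averaged 4.74 ± 0.630 TPM (SD, n = 3). Its sensor genes Naip2, Naip5 and Naip6 averaged 11.9, 3.30 and 1.25 TPM. The Naip genes are close paralogs, so the split of reads among them is uncertain. Nek7, the Nlrp3 partner kinase, and Txnip, a thioredoxin-binding protein reported to act on Nlrp3, were abundant at means of 154 and 422 TPM.

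The interleukin genes of the list and Gsdmd were each below the median of 7.72 TPM over genes with a count. Il1b had 0, 1 and 1 counts and Il1a 0, 1 and 3, while Il18 averaged 5.14 ± 0.782 TPM (SD, n = 3). Gsdmd, the gasdermin D gene, was at 1.14, 1.14 and 1.38 CPM. Per length, Casp1 stood at 451 TPM and Casp4 at 117 TPM, against 1.60 TPM for Gsdmd. Ninj1, whose product ruptures the plasma membrane after pore opening, stood at 41.8 ± 1.71 TPM (SD, n = 3). Gbp2 and Gbp5, interferon-induced GTPases that help caspase-4 reach lipopolysaccharide, averaged 0.938 and 0.138 TPM.

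**Figure D4:**
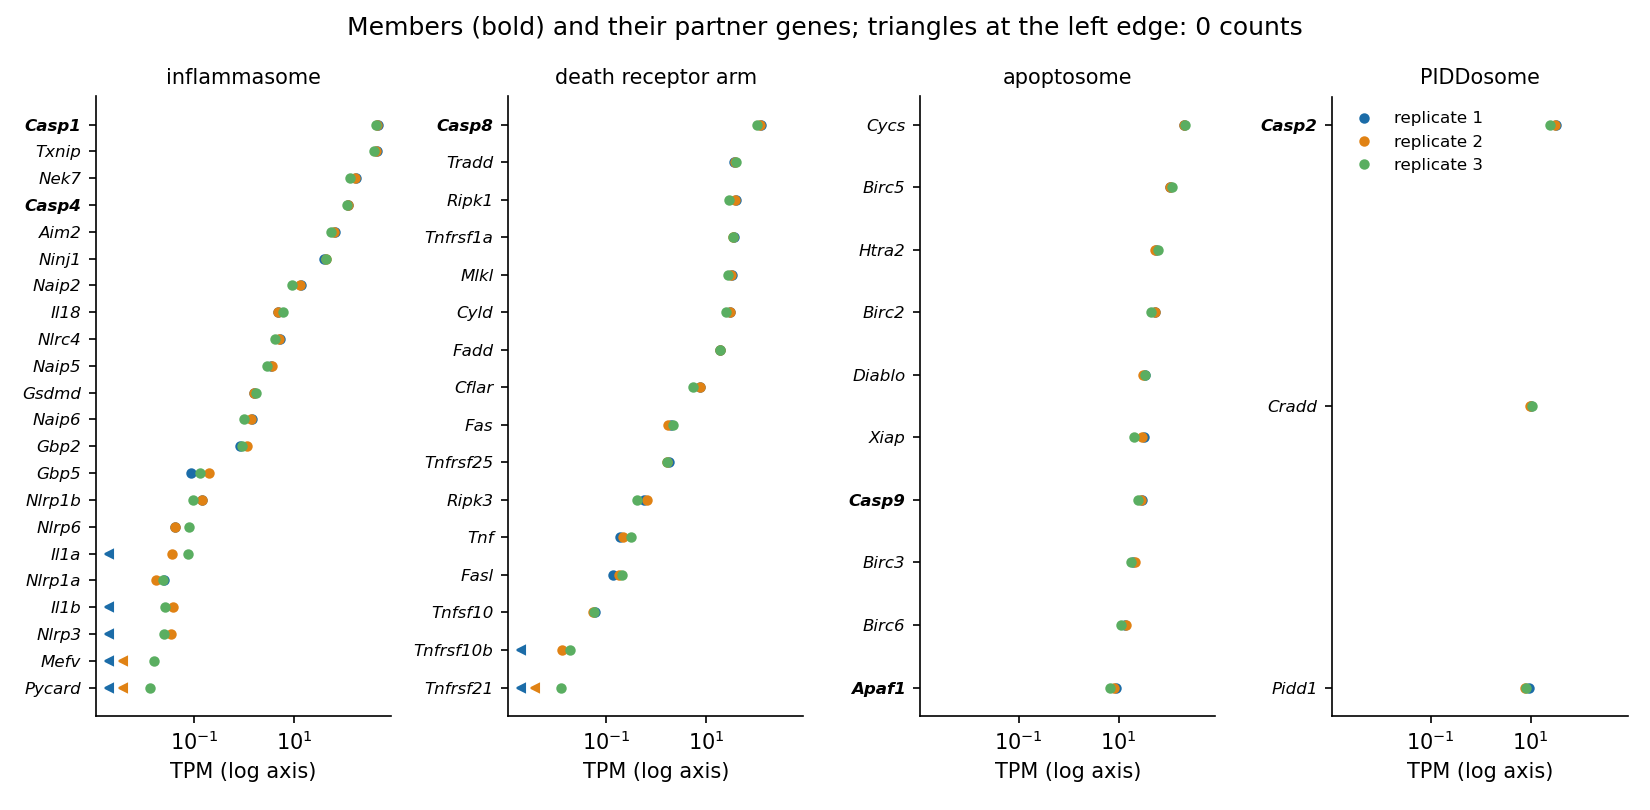
TPM (log axis) in each library for members (bold) and the genes of 4 partner lists, with 0 counts drawn as triangles at the left edge. Casp1 tops the inflammasome panel, where Txnip and Nek7 lie between it and Casp4, and Pycard and Mefv are at the bottom. Casp8 tops the death receptor panel, where Fadd and Cflar lie below it.

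Casp8, the initiator below death receptors, was at 113, 106 and 97.9 CPM in replicates 1, 2 and 3, and averaged 115 ± 12.7 TPM (SD, n = 3). Its level was lowest in replicate 3. In the death receptor arm 9 of 15 genes reached 1 CPM in every library, and the median of the list was 1.92 TPM. Per kilobase, Casp8 exceeded its adaptor gene Fadd 6.10-fold (log2 2.61 ± 0.16, SD, n = 3). It exceeded Cflar, whose product FLIP competes with caspase-8 on Fadd, 17.03-fold (log2 4.09 ± 0.13), or 9.89-fold with the longest transcript and 3.89-fold without lengths.

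Receptors and ligands of this arm were low, apart from 1 receptor. Tnfrsf1a, the main TNF receptor gene, was at 34.7 ± 1.44 TPM, whereas Fas was at 1.92 ± 0.214 TPM and Tnfrsf25 at 1.69 ± 0.0767 TPM (SD, n = 3 for each). Tnfrsf10b, the mouse TRAIL receptor gene, had 0, 1 and 2 counts, and the ligand genes Fasl, Tnfsf10 and Tnf had at most 10 counts in any library. Downstream of Tnfrsf1a, the adaptor gene Tradd averaged 37.7 TPM, the kinase gene Ripk1 34.9 TPM and the deubiquitinase gene Cyld 28.1 TPM. The necroptosis pair was unequal, with Mlkl, which encodes the membrane-breaking effector, at 30.2 ± 3.29 TPM and its activating kinase gene Ripk3 at 0.541 ± 0.114 TPM (SD, n = 3 for each).

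Casp9 and Apaf1, the apoptosome pair, were both expressed. Casp9 was at 46.4, 45.2 and 42.0 CPM in replicates 1, 2 and 3, and Apaf1 at 24.99, 22.5 and 20.1 CPM, with both lowest in replicate 3. Casp9 exceeded Apaf1 3.44-fold per kilobase (log2 1.78 ± 0.086, SD, n = 3) and 1.98-fold without lengths. Casp8 exceeded Casp9, the initiator of the mitochondrial route, 4.25-fold per kilobase (log2 2.09 ± 0.035, SD, n = 3) and 2.37-fold without lengths.

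All 8 apoptosome partners and inhibitors reached 1 CPM in every library, and their median was 41.7 TPM. Cycs, which encodes cytochrome c, was the most abundant at 209 ± 7.83 TPM, beside 7.85 ± 1.15 TPM for Apaf1 (SD, n = 3 for each). Diablo and Htra2, mitochondrial antagonists of the inhibitor proteins, averaged 33.0 and 57.5 TPM. Xiap, whose product binds caspase-9 directly, was at 92.8, 88.7 and 64.3 CPM and averaged 27.3 ± 6.14 TPM, close to the 26.9 ± 2.49 TPM of Casp9 (SD, n = 3 for each). The log2 ratio of Casp9 to Xiap was 0.004 ± 0.215 and was above 0 in 1 of 3 libraries, so its direction differed between libraries (exact two-sided sign-flip permutation p = 1.0, n = 3, in a design that cannot go below 0.25). Without lengths it was -0.86, with Casp9 below Xiap. Birc2, Birc3, Birc5 and Birc6 averaged 50.5, 19.5, 112 and 12.9 TPM.

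Casp2, which guards against extra centrosomes and DNA damage, was at 69.1, 66.5 and 59.0 CPM in replicates 1, 2 and 3 and averaged 28.9 ± 3.49 TPM (SD, n = 3). The lowest value was again in replicate 3. Both of its platform genes were expressed, Pidd1 at 8.44 ± 0.773 TPM and Cradd at 10.1 ± 0.492 TPM (SD, n = 3 for each), and both reached 1 CPM in every library.

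Casp6, the executioner, was at 15.6, 15.4 and 17.2 CPM, with the highest value in replicate 3. Per kilobase it was lower than Casp9 (log2 ratio -1.58 ± 0.16, SD, n = 3) and lower than Casp8 (-3.66 ± 0.18, or -2.71 without lengths), in 3 of 3 libraries each. Of 12 known substrates of apoptotic caspases 10 reached 1 CPM in every library, and their list median was 30.9 TPM. Lmnb1, the lamin B1 gene, averaged 670 TPM and Parp1, a DNA break sensor, 154 TPM, and Lmna, whose product is cut by caspase-6, averaged 28.3 ± 1.15 TPM (SD, n = 3). Dffa and Dffb, the inhibitor and the nuclease that cuts DNA in apoptosis, averaged 22.7 and 8.98 TPM. At the low end were Panx1, a membrane channel gene, with 0, 1 and 2 counts, and Gsdme, another pore protein gene, counted under its older symbol Dfna5 with 8 counts over all libraries.

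Genes linked to Casp12 in mice were expressed although Casp12 itself was near 0. All 7 genes of this list reached 1 CPM in every library, and their median was 34.0 TPM. Capn1 and Capn2, the calpains reported to cut caspase-12, averaged 46.5 and 27.1 TPM, their small subunit gene Capns1 310 TPM, and Traf2 and the stress sensor Ern1, reported to act on caspase-12 at the endoplasmic reticulum, 16.9 and 34.0 TPM. Ddit3, a stress-induced transcription factor gene, and Hspa5, the main chaperone gene of that compartment, averaged 28.8 and 1776 TPM.

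Transcription factor genes known to act on members were also measured. Trp53, a known activator of Apaf1, averaged 114 ± 5.89 TPM, and E2f1, another, 33.8 ± 1.45 TPM (SD, n = 3 for each). Irf1 and Irf2, interferon regulatory factors that act on inflammatory caspase genes, averaged 17.2 and 9.61 TPM, and Nfkb1 and Rela 26.2 and 36.0 TPM, whereas Irf8, the myeloid and B cell factor, had 0, 0 and 1 counts.

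With 1 group, the only comparison the samples allowed was of each library with the other 2, made with edgeR's quasi-likelihood test and Benjamini-Hochberg adjustment over 11308 genes. It describes these libraries and no condition, and its SE reflects the spread of the other 2 libraries, moderated over all genes. For replicates 1 and 2 that spread includes replicate 3, which stood apart. The SE of Casp8 was 0.190 and 0.209 in the comparisons of replicates 1 and 2, against 0.041 in that of replicate 3. Small differences of replicates 1 and 2 could therefore be missed. Few genes at large had an unadjusted p under 0.05 in these comparisons, so finding none among the 8 members does not set them apart. In replicate 1 and in replicate 2 no member passed an adjusted p of 0.05, against 0.0796% and 0.0531% of all genes, and 0 members had an unadjusted p under 0.05. DESeq2 also called 0 members in both. In replicate 3, 5 of 8 members passed, where 51.6% of all genes did, so the members' share was near that of genes at large. The median log2 difference was -0.10 over the members and 0.01 over all genes.

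In replicate 3, 3 members were lower, beside 26.8% of all genes, and 2 were higher, beside 24.8%. Apaf1 was at 20.1 CPM in replicate 3, against 24.99 and 22.5 CPM in replicates 1 and 2, a log2 difference of -0.21 (SE 0.069, edgeR adjusted p = 0.00602). Casp2 was lower by a log2 difference of -0.17 (SE 0.043, edgeR adjusted p = 0.000235) and Casp8 by -0.13 (SE 0.041, edgeR adjusted p = 0.00354). Casp6 was higher at 17.2 CPM in replicate 3, against 15.6 and 15.4 CPM in replicates 1 and 2, a log2 difference of 0.18 (SE 0.075, edgeR adjusted p = 0.0321), and Casp4 was higher by 0.09 (SE 0.040, edgeR adjusted p = 0.0374). Casp1, Casp9 and Casp12 did not pass, at log2 differences of 0.07, -0.10 and -0.11. With library totals as the scale, 3 members were lower and 0 higher, beside 3360 genes lower and 2224 higher. With DESeq2 the log2 differences were -0.22 for Apaf1, -0.18 for Casp2, -0.14 for Casp8, 0.17 for Casp6 and 0.08 for Casp4. However, DESeq2 called none of the members, and it called fewer genes at large than edgeR.

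**Figure D5:**
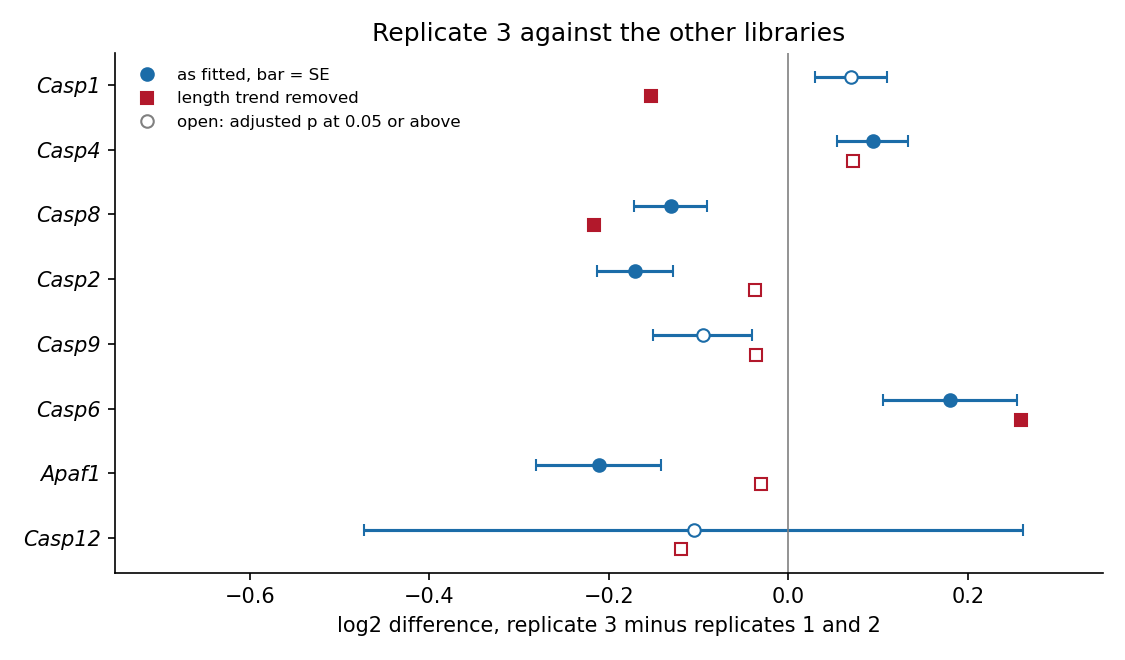
Log2 difference of replicate 3 minus replicates 1 and 2 for each gene, as fitted with edgeR (circles, bar = SE) and with the trend on exon length removed (squares), where open marks have an adjusted p of 0.05 or above. Apaf1 and Casp2 are at -0.21 and -0.17 as fitted and at -0.03 and -0.04 without the trend, while Casp8 stays below 0 and Casp6 above 0.

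Exon length moved with the difference of replicate 3. Over 4 equal groups of genes, from the shortest to the longest, its median log2 difference was 0.21, 0.05, -0.06 and -0.19, and Casp2 and Apaf1 are in the longest group, whereas Casp1 is in the shortest. This trend was then removed, using only genes with an annotated exon length. Casp8 was then at a log2 difference of -0.22, Casp6 at 0.26 and Casp1, now lower, at -0.15. Apaf1, Casp2 and Casp4 no longer passed, at -0.03, -0.04 and 0.07. In the chi-square test of counting noise 7 of the 8 members varied over the libraries, all but Casp12, which had 69 counts in all, beside 62.9% of all genes. This test takes every count as an independent molecule and finds smaller differences in genes with more counts. The 7 members that varied had from 2698 to 36153 counts in all, so their share and that of all genes are not on equal terms. Without replicate 3 only Casp8 still varied, and 966 genes in place of 7113.

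Calls in the partner lists were also found in replicate 3, where 24.8% of all genes were called higher and 26.8% lower. There the number of genes called higher and lower was 1 and 3 of 10 tested for the death receptor arm, 4 and 2 of 8 for the apoptosome list, 1 and 0 of 2 for the PIDDosome, 2 and 2 of 13 for the inflammasome list, 0 and 3 of 10 for the substrates and 2 and 2 of 7 for the calpains and Casp12 partners. Their median log2 differences lay between -0.07 for the inflammasome list and 0.15 for the PIDDosome, beside 0.01 over all genes. In replicates 1 and 2, 0 genes of these lists were called by edgeR. Ern1 had a log2 difference of -0.73 in replicate 3, at 60.2 CPM there, against 104 and 99.3 CPM in replicates 1 and 2, and Xiap one of -0.47 (edgeR adjusted p = 1.43e-26), at 64.3 CPM against 92.8 and 88.7 CPM. The part of exon length in these list counts was not tested.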

How the data were processed

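RNA-seq of polyadenylated RNA was available for 3 libraries. The authors deposited raw counts per gene symbol, 1 table per sample. Per the submitters' processing notes they used bcl2fastq, cutadapt 4.2, STAR and the genome mm10, while the sources used here do not give the counting program, annotation or strand setting.

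GENCODE M21 annotation (GRCm38, equal to mm10) gave exon lengths and positions, matching 23688 symbols directly and 465 through another symbol. CPM used library totals and TPM the union of exons. The limit set by 0 counts, taken as 3 counts, was 0.0482, 0.0656 and 0.0505 CPM in replicates 1, 2 and 3. Libraries were compared from the deposited counts with edgeR 4.0.16 in R 4.3.3 (TMM, filterByExpr, quasi-likelihood test, 1 residual degree of freedom) and with DESeq2 1.42.0. The edgeR test was also run on simulated libraries. These varied less than the real ones and had no outlying library or length trend, so they do not show how it performs here. The length trend was a loess fit (span 0.3). Promoters came from RefSeq. Sign-flip tests used Python 3.11.15.

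Members, lists, ratios and tests were chosen with earlier results of these data known. Genes that could be named were the members, their listed partners, the cell type markers and the chromosome 9 neighbours. Other caspases, some listed genes and 1 searched motif are not reported here. Alternatives changed the scaling, filter, tool, length or detection limit, or left out a replicate.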

Additional observations from a re-analysis of the deposited data

How the results depend on the processing

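No paired analysis was possible because there is 1 group. Members at 1 CPM or more stayed at 7 with limits of 0.5 and 5 CPM and with TMM sizes. That count could not change with a replicate left out, since each member was on the same side of 1 CPM in all libraries. Mean CPM with TMM sizes lay within 1 SD of the reported mean for all 8 members. Means with a replicate left out must lie within 1 SD when there are 3 libraries, so they test nothing. Of 70 alternative ratios 65 kept their sign, but many could not do otherwise. Leaving out a replicate cannot reverse a ratio that has the same sign in all libraries. That held for every ratio except Casp9 to Xiap and Casp4 to Casp8. The log2 ratio of Casp9 to Xiap became -0.051 with the longest transcript and -0.86 without lengths, and ran from -0.12 to 0.073 with a replicate left out. That of Casp4 to Casp8 ran from -0.041 to 0.11 so, and that of Casp6 to Apaf1 became -0.48 without lengths. Called genes numbered 9, 6 and 5834 in replicates 1, 2 and 3, and 1, 1 and 3026 with DESeq2, or 3832 in replicate 3 without the length trend. Called members in replicate 3 numbered 5, but 3 on library totals, 3 without the length trend and 0 with DESeq2. The chi-square test gave 966 to 7059 genes and 1 to 7 members with a replicate left out, the lowest without replicate 3. The causes were not tested. Leaving out a library from the edgeR comparison leaves no residual degree of freedom, so it was not run. The sign-flip test of Casp1 against Pycard could not be run, as Pycard had 0 counts in 2 libraries. Counts of 69 in all limit the precision for Casp12.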
